A study of Mus musculus with 12 samples.

Results

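The comparison described here sets 4 RNA-seq libraries labelled Pax6 cKO against 4 libraries labelled Control, all from embryonic cortex of C57BL/6J mice at embryonic day E15.5. These 8 libraries were chosen by their titles from the 12 of the series, whose other 4 were labelled BAF155 cKO. The question set by the study's design is which transcripts differ in level when Pax6 is conditionally knocked out (cKO). The sources used here name no Cre driver, no floxed allele, no deleted exon and no genotype of the controls, so the cells in which recombination took place are not known from the labels. No label states whether replicate libraries are different embryos, so p-values below rest on the variation among libraries, part of which could be technical. All genes on chromosomes X and Y were left out of the description, which leaves 15928 of the 16511 genes tested and of the 48709 gene identifiers in the count tables. Levels are in CPM, read counts scaled to a common library size, which rise with transcript length and are compared only between libraries for the same gene.

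Pax6 is a transcription factor with a paired domain and a homeodomain. In the embryonic telencephalon it is made by radial glia of the dorsal part, the pallium, which line the ventricle and divide to give neurons directly or through intermediate progenitors that express Eomes (also called Tbr2). Pax6 is known there for driving the proneural gene Neurog2, for the supply of upper-layer neurons, and for holding back ventral, GABAergic programmes at the border with the subpallium.

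The 8 libraries held between 21408501 and 32047949 counted reads. The 4 libraries labelled Pax6 cKO lay closer to each other than to the controls, with a mean chi-square per gene of 3.18 to 20.6 between pairs. It was 33.1 to 44.7 for their pairs with controls 1 and 2 and 78.2 to 108.6 for their pairs with controls 3 and 4. Controls 3 and 4 stood apart from controls 1 and 2, at 23.0 to 42.4, against 13.2 between controls 1 and 2 and 5.78 between controls 3 and 4. The chi-square was taken on raw counts and so also rises with the number of reads. Unlike the rest of the description, this chi-square took in genes on chromosomes X and Y, and mitochondrial genes. The differences in sex-linked and mitochondrial reads given next are therefore part of it. Xist was at 5.75 CPM or less in controls 1 and 2 and in the labelled libraries, and near 964 CPM in controls 3 and 4, so the sex-linked transcripts of controls 1 and 2 match those of the labelled libraries and those of controls 3 and 4 do not. The share of reads from mitochondrial genes was 2.27% and 2.18% in controls 1 and 2, 1.21% and 1.38% in controls 3 and 4, and 2.04% to 2.91% in the labelled libraries. The file names place the labelled libraries on one sequencing lane and the controls on another, so lane and group cannot be told apart. Counts that follow are therefore also given against controls 1 and 2 alone.

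Pax6 itself was higher, not lower, in the libraries labelled Pax6 cKO. The gene (ENSMUSG00000027168, mm10 chr2:105668900-105697364, plus strand, protein coding) had 82.0, 118, 125 and 116 CPM in controls 1 to 4 and 380, 399, 384 and 392.4 CPM in the labelled libraries 1 to 4. All 4 labelled libraries lay above all 4 controls, and the mean rose from 110 ± 19.1 to 389 ± 8.74 CPM (SD, n = 4 in each group here and below), so that the log2 fold change was 1.82 (standard error, SE, 0.12) and the adjusted p 9.46e-08. This direction goes against the label. The libraries labelled BAF155 cKO also lay above the controls, with 313, 369, 273 and 301 CPM of Pax6. Counts over a whole gene include exons outside any deleted part, so they do not check a deletion, and every direction below is that of the libraries labelled Pax6 cKO.

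Other transcripts of the same stretch of chromosome 2 were also high; they were looked at after their values were seen, apart from Paupar. Paupar, a long noncoding RNA transcribed next to Pax6, had 0.496, 0.332, 0.677 and 0.621 CPM in the controls and 4.87, 4.51, 4.57 and 5.02 CPM in the labelled libraries (log2 fold change 3.15, SE 0.21, adjusted p 9.51e-08). The antisense transcript Pax6os1 rose from 0.606 to 1.88 CPM (1.61 on the log2 scale), and the neighbours Immp1l and Dcdc5 rose by 1.05 and 1.49 on that scale. In the libraries labelled BAF155 cKO, Paupar was at 4.06 and Pax6os1 at 1.59 CPM, also above the control means. Elp4, whose introns hold long-range Pax6 enhancers, had a log2 fold change of 0.15 (adjusted p 0.321), and Rcn1, on the other side, one of -0.15 (adjusted p 0.213). The library kit does not mark strand, so reads from overlapping antisense partners cannot be told apart. Among genes named with values, annotated exons of another gene overlap Dcdc5, Dlx1, Sp9, Reln, Trp73, Ebf3, Lhx5, Sorl1, Heg1, Eomes, Neurod1, Emx2, Gli3, Hopx, Tnc, Sdc3, Sox5, Nrg1, Sfrp2, Wnt5a, Wnt7b, Axin2, Notch1, Notch3, Dll1, Hes5, Gas1, Fat1, Crb2, Cdh8, Unc5c, Grin2b, Pcp4, Rfc4, Ccnd1, Cdk6, Hmga2, Smarcc1, Nmbr, Cfap65, Ly6g6e, Hs3st3a1, Prss41, Tagap and Pla2g4b.

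Of the 15928 genes, 5663 passed an adjusted p under 0.05 (35.6%), 2619 higher (16.4%) and 3044 lower (19.1%) in the libraries labelled Pax6 cKO. The 4 labelled libraries all lay on one side of the 4 controls for 4768 of the called genes (29.9% of all genes). Changes of at least 2-fold were found for 281 higher (1.76%) and 269 lower genes (1.69%). Among the changes of at least 4-fold, 21 were higher and 42 lower. The median log2 fold change over all genes was 0.02. Against controls 1 and 2 alone, 16634 genes were tested, and 508 were higher (3.05%) and 827 lower (4.97%), of which 479 and 794 were among those called with all controls, and 5661 of the 5663 calls kept their sign. These percentages are the background against which the counts of each gene group below are read.

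**Figure D1:**
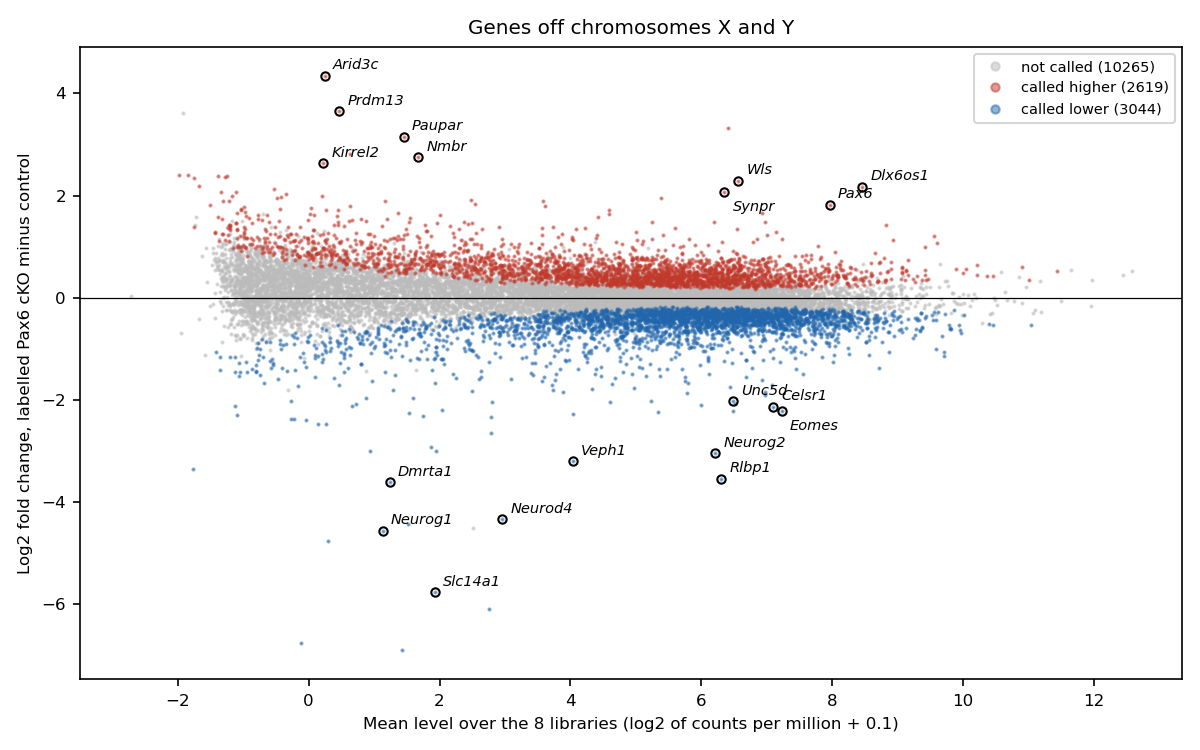
Log2 fold change (vertical axis, libraries labelled Pax6 cKO minus control) against the mean level over the 8 libraries (horizontal axis, log2 of CPM plus a constant) for 15928 genes, each a dot. The 2619 higher and 3044 lower calls spread over the whole range of levels, and circles mark named genes such as Wls (2.29) and Slc14a1 (-5.77).

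Fold changes moved with gene length. The median log2 fold change fell from 0.27 in the shortest to -0.17 in the longest of 5 equal classes of genes by summed exon length, and the share called lower rose from 4.09% to 37.5%. Against controls 1 and 2 these medians ran from 0.17 to -0.12, and after correcting each library for its trend on GC content and length from 0.01 to -0.02. With that correction, 2119 genes were higher (13.3%) and 2497 lower (15.7%), the background for corrected counts. The part of this trend in the counts of each group was not tested beyond that correction.

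**Figure D2:**
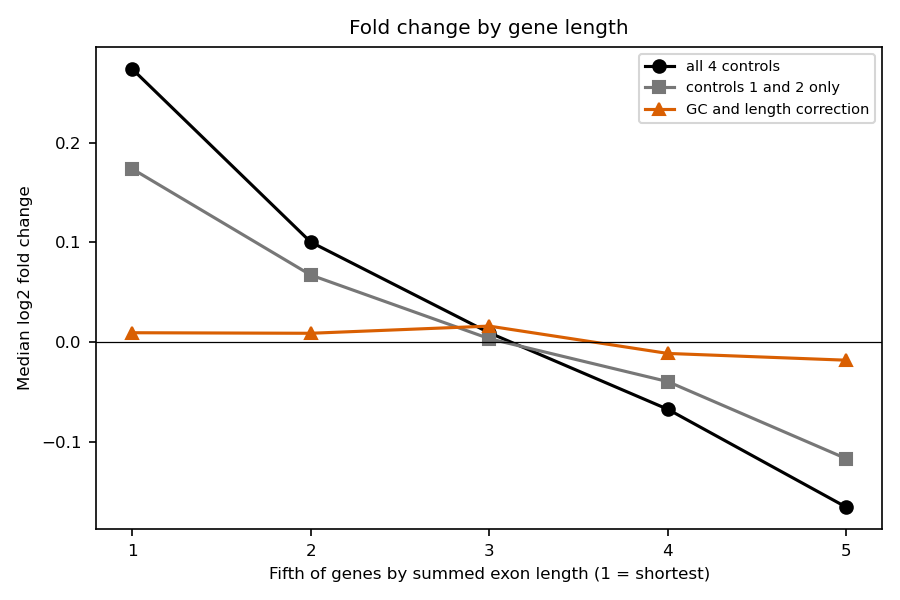
Median log2 fold change (vertical axis) in 5 equal classes of genes by exon length (horizontal axis, shortest at left) with all 4 controls, with controls 1 and 2 only, and after correction for GC content and length. The line for all controls falls from 0.27 to -0.17, that for controls 1 and 2 from 0.17 to -0.12, and the corrected line stays near 0.

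Among called genes with separate groups, at least 1 CPM in a group and a symbol that is no predicted model, proneural factors and genes of radial glia were among the 12 that fell furthest. Neurod4, a proneural factor made by progenitors on their way to neurons, had 12.2, 13.6, 15.2 and 17.5 CPM in the controls and 0.636, 0.609, 0.884 and 0.699 CPM in the labelled libraries, a 20.3-fold drop (log2 fold change -4.35, SE 0.18, adjusted p 3.82e-10). Rlbp1, which encodes a retinaldehyde-binding protein found in Müller glia and in cortical radial glia, had 133, 149, 159 and 140 CPM in the controls and 11.7, 13.7, 11.9 and 12.5 CPM in the labelled libraries (11.7-fold lower, log2 fold change -3.55, SE 0.10). It had the smallest p of the named genes (adjusted p 3.69e-12). Slc14a1, a urea transporter, had 6.20 to 8.65 CPM in the controls and 0.0813 to 0.177 CPM in the labelled libraries, down by 5.77 on the log2 scale (SE 0.28, adjusted p 2.54e-09), with 14 reads in the 4 labelled libraries together. The groups were separate for each of these 3 genes.

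The proneural gene Neurog1, a paralog of Neurog2, had a log2 fold change of -4.57. Dmrta1, a dorsal progenitor factor upstream of Neurog2, had one of -3.62. Veph1, which codes for a protein with a pleckstrin homology domain, fell from 29.3 to 3.19 CPM (log2 fold change -3.20, adjusted p 1.84e-10). The other genes among the 12 lowest were Neurog2, Ly6g6e (-3.01), Pdlim3 (-3.01), Dapp1 (-2.65), Hs3st3a1 (-2.38) and Ppp1r3g (-2.37). Among the 10 genes of smallest p were further Sorl1, a sorting receptor (148 to 31.8 CPM), Heg1, a transmembrane receptor (103 to 24.1 CPM), Pde1b, a cyclic-nucleotide phosphodiesterase (134 to 39.7 CPM), and Bmpr1b, a BMP receptor (20.6 to 5.83 CPM). Each of these genes also passed the test against controls 1 and 2.

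By the same rule, the 12 highest genes were transcripts of low level, apart from Wls, Dlx6os1, Synpr and Adarb2. Wls, the carrier that Wnt proteins need for secretion, had 36.2, 34.2, 32.3 and 24.7 CPM in the controls and 141, 166, 149 and 170 CPM in the labelled libraries, a 4.90-fold rise (log2 fold change 2.29, SE 0.12, adjusted p 3.59e-09). Dlx6os1, a noncoding RNA of the Dlx5 and Dlx6 locus made in GABAergic progenitors and neurons, rose from 127 ± 40.9 to 575 ± 49.1 CPM (log2 fold change 2.18). Synpr, a synaptic vesicle protein, rose from 31.3 to 132 CPM, and Adarb2, an RNA-binding relative of the RNA editing enzymes and a marker of interneurons of the caudal ganglionic eminence, from 17.1 to 66.3 CPM. For each of these 4 genes all labelled libraries lay above all controls.

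Of the low transcripts, Prdm13, a factor of dorsal spinal cord and retinal progenitors, had 0.0947 to 0.290 CPM in the controls and 2.32 to 2.40 CPM in the labelled libraries (log2 fold change 3.65, SE 0.37, adjusted p 7.42e-06). Arid3c, a DNA-binding protein with an ARID domain, rose from 0.0964 to 2.07 CPM (4.35, on 9 reads in the 4 controls together and 225 in the labelled libraries), Nmbr, the neuromedin B receptor, from 0.788 to 5.39 CPM (2.76), and Kirrel2, an adhesion protein of the nephrin family, from 0.296 to 1.83 CPM (2.63). Serpinb2 (2.02), Tex29 (1.98) and Cfap65 (1.97) completed the 12 highest. Cfap65 was no longer past the threshold against controls 1 and 2 (adjusted p 0.14).

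**Figure D3:**
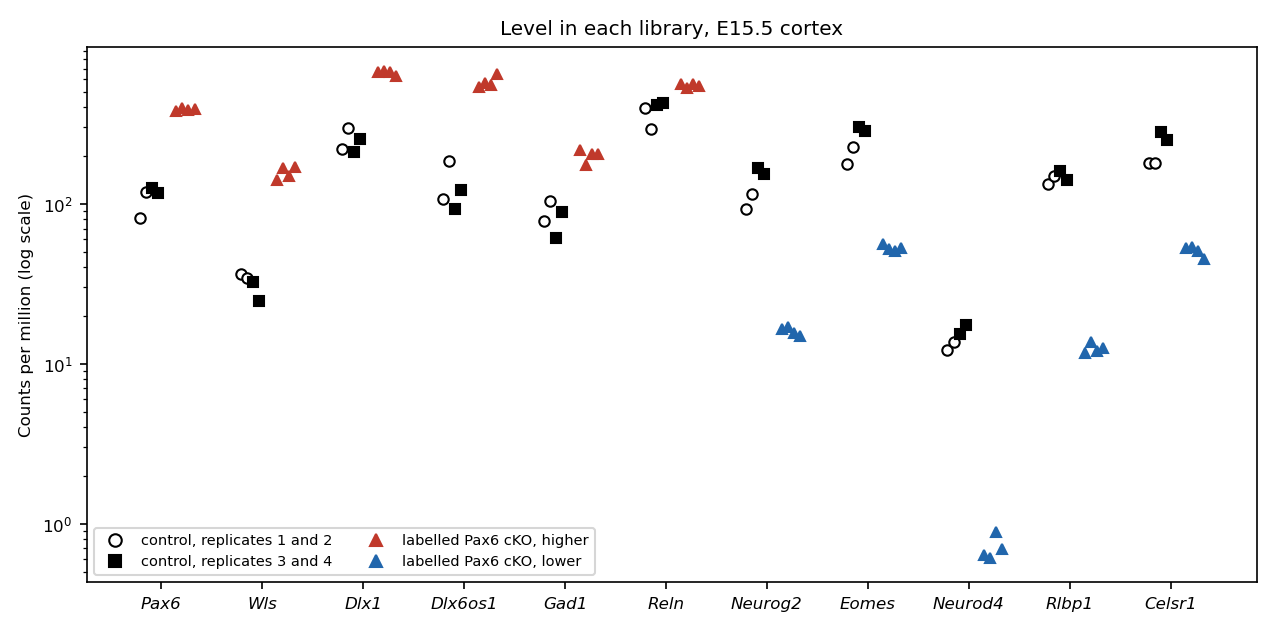
Level in each library (vertical axis, CPM on a log scale) of 11 named genes (horizontal axis): open circles are controls 1 and 2, filled squares controls 3 and 4, triangles the libraries labelled Pax6 cKO. For every gene drawn the 4 triangles lie together on one side of the 4 controls, above them from Pax6 to Reln and below them from Neurog2 to Celsr1.

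Radial glia express Pax6, and their gene list was lower as a whole: 18 of 25 measured members fell and 1 rose, with a median log2 fold change of -0.50 against 0.02 over all genes. Besides Rlbp1, Veph1 and Slc14a1, Aldoc, an aldolase enriched in radial glia and astrocytes, fell from 207 ± 23.97 to 63.3 ± 6.46 CPM (log2 fold change -1.71, adjusted p 4.46e-08). The intermediate filament genes Nes and Vim fell by 0.87 and 1.06 on the log2 scale, and Nr2e1, a nuclear receptor that keeps progenitors dividing, by 1.39. Fabp7, a fatty acid binding protein and a known Pax6 target, was the member that rose, from 856 ± 163 to 1190.5 ± 80.3 CPM (0.48, adjusted p 0.0116). Its levels in controls 1 and 2, 1005.9 and 988.9 CPM, were above the 702 and 728 CPM of controls 3 and 4, and the difference from the first pair alone did not pass (0.25, adjusted p 0.23). Sox2, a pan-progenitor factor, had 64.6 to 133 CPM in the controls and 123 to 147 CPM in the labelled libraries, which overlap (log2 fold change 0.25, adjusted p 0.311). Against controls 1 and 2, 13 members were lower and 0 higher. In bulk tissue, fewer cells of a type and less RNA per cell cannot be told apart.

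The list of basal radial glia, progenitors detached from the ventricle, was mixed, with 3 of 16 higher and 5 lower. Tnc, an extracellular glycoprotein of the progenitor niche, fell from 253 ± 42.6 to 95.6 ± 3.58 CPM (-1.41), and Sdc3, a heparan sulphate proteoglycan, from 320.4 to 174 CPM (-0.88). Pth2r, a parathyroid hormone receptor, rose from 0.679 to 1.49 CPM (1.13). Hopx, a homeodomain protein used as a marker of these cells, differed by 0.36 (adjusted p 0.036) and did not pass against controls 1 and 2 (0.18, adjusted p 0.42). Without controls 3 and 4, 1 member was higher and 3 lower, and after the GC and length correction 1 and 4.

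Of 23 genes of intermediate progenitors, 16 were lower and 2 higher, with a median log2 fold change of -0.62. Neurog2, which drives progenitors towards glutamatergic neurons, had 92.4, 115, 167 and 154 CPM in the controls and 16.5, 17.1, 15.45 and 14.98 CPM in the labelled libraries (8.25-fold lower, log2 fold change -3.04, SE 0.21, adjusted p 1.08e-07). Eomes, the defining factor of these cells, had 177, 225, 299.96 and 286 CPM in the controls and 55.8, 52.0, 50.4 and 52.6 CPM in the labelled libraries (4.69-fold lower, -2.23, SE 0.18, adjusted p 6.31e-07). For both genes every labelled library lay below every control, and controls 3 and 4 lay above controls 1 and 2.

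The somatostatin receptor gene Sstr2 fell from 102 to 36.4 CPM (-1.49), the tachykinin gene Tac2 by 2.26 on the log2 scale, and Btg2, an antiproliferative gene of neurogenic divisions, by 0.62. The members that rose were Eya2, a transcriptional coactivator and phosphatase (3.81 to 7.85 CPM, 1.04), and Dll3, a Notch ligand that acts within the cell (0.51). Insm1, a zinc finger factor of basal progenitors, passed with all libraries (-0.45, adjusted p 0.034) and lost its call when any library but control 1 was left out. With controls 1 and 2 alone, 13 members were lower and 2 higher.

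Dorsal patterning factors were lower and ventral ones higher. Of 18 pallial patterning genes, 11 fell and 1 rose (median -0.57), and of 26 ventral telencephalon factors, 15 rose and 0 fell (median 0.58). Tfap2c, an AP-2 factor of radial glia and a known target of Pax6, had 29.5 to 48.6 CPM in the controls and 8.12 to 10.5 CPM in the labelled libraries, with no overlap (log2 fold change -2.05, adjusted p 6.11e-07). Emx1, a homeodomain factor of pallial progenitors, fell from 47.3 ± 12.7 to 18.5 ± 4.36 CPM (-1.36), and Gli3, the zinc finger factor that keeps the pallium dorsal, from 84.4 ± 26.9 to 26.4 ± 0.563 CPM (-1.67). Lhx2 (-0.66), a LIM factor of the same progenitors, passed with all controls and not against controls 1 and 2. Emx2, the paralog of Emx1, had 51.0 ± 11.8 and 49.0 ± 0.473 CPM (-0.05, adjusted p 0.791). Sp8, a zinc finger factor of the medial and frontal pallium and also of ventrally derived interneurons, rose from 23.4 to 52.0 CPM (1.16). Using controls 1 and 2 alone, 5 pallial members were lower and 1 higher.

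Dlx1, a homeodomain factor of subpallial progenitors and of GABAergic neurons, had 219.9, 298, 211 and 253 CPM in the controls and 667, 673, 666 and 627 CPM in the labelled libraries (2.68-fold higher, log2 fold change 1.42, SE 0.10, adjusted p 2.29e-07). Its neighbour Dlx2 had 37.6 to 79.8 CPM and 93.3 to 142 CPM (0.86, adjusted p 0.00401), and Gsx2, a factor of the lateral ganglionic eminence that Pax6 opposes at the pallial-subpallial border, 3.24 to 7.21 and 10.8 to 12.6 CPM (1.06, adjusted p 0.00156). For all 3 the labelled libraries lay above the controls. Dlx5, Dlx6 and Sp9, which act later in the same cells, rose by 1.36, 1.16 and 1.22. Olig2, a factor of ventral progenitors and of the oligodendrocyte lineage, rose by 0.72.

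Nkx2-1, which defines the medial ganglionic eminence, did not pass, with 5.91 ± 6.44 CPM in the controls and 6.10 ± 4.26 CPM in the labelled libraries (0.07, adjusted p 0.957). Lhx6, made by interneurons born there, had 85.5 ± 6.13 and 88.5 ± 3.14 CPM (0.05, adjusted p 0.686), and Isl1, a factor of striatal progenitors, 26.4 ± 14.7 and 26.6 ± 2.80 CPM (0.02, adjusted p 0.973). The controls varied widely for Nkx2-1 and Isl1, as their SDs show, and a p that misses the threshold does not show equal levels. Against controls 1 and 2, 12 ventral factors were higher and 0 lower.

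The list of GABAergic interneuron genes held 13 higher and 2 lower of 23 (median 0.52). Gad1, which makes GABA from glutamate, had 77.6, 104, 61.3 and 88.7 CPM in the controls and 218, 175, 205 and 206 CPM in the labelled libraries, with no overlap. Gad2, its paralog, rose from 107 to 153 CPM (0.52), which rests on control 3 and does not pass against controls 1 and 2. Erbb4, the neuregulin receptor of migrating interneurons, rose from 70.5 ± 6.63 to 151 ± 13.2 CPM (1.09), and Calb2, a calcium-binding protein of interneurons and of Cajal-Retzius cells, from 37.1 to 67.3 CPM (0.86). Sox6 (-0.65) and Satb1 (-0.32), both factors of interneurons from the medial eminence and of some projection neurons, fell. With controls 1 and 2 alone, 7 were higher and 0 lower, and after the correction 12 and 1. Of 16 genes of striatal projection neurons 1 rose and 4 fell, 1 and 2 after the correction and 0 and 1 against controls 1 and 2.

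At the pallial-subpallial border, 5 of 8 measured genes were lower and 2 higher (median -0.60). Sfrp2, a secreted Wnt antagonist that marks this border and depends on Pax6, had 18.6 to 22.7 CPM in the controls and 6.37 to 8.86 CPM in the labelled libraries (-1.40, adjusted p 2.48e-06). Sema5a, a transmembrane semaphorin, fell from 148 to 35.1 CPM (-2.08), and the neuregulin gene Nrg1 by 0.58. Etv1, an ETS factor of ventral progenitors and of layer 5, rose from 22.1 to 46.0 CPM (1.06), and Fgf7, a border marker, rose by 0.94 but not against controls 1 and 2 (0.87, adjusted p 0.092), where 4 members were lower and 1 higher.

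**Figure D4:**
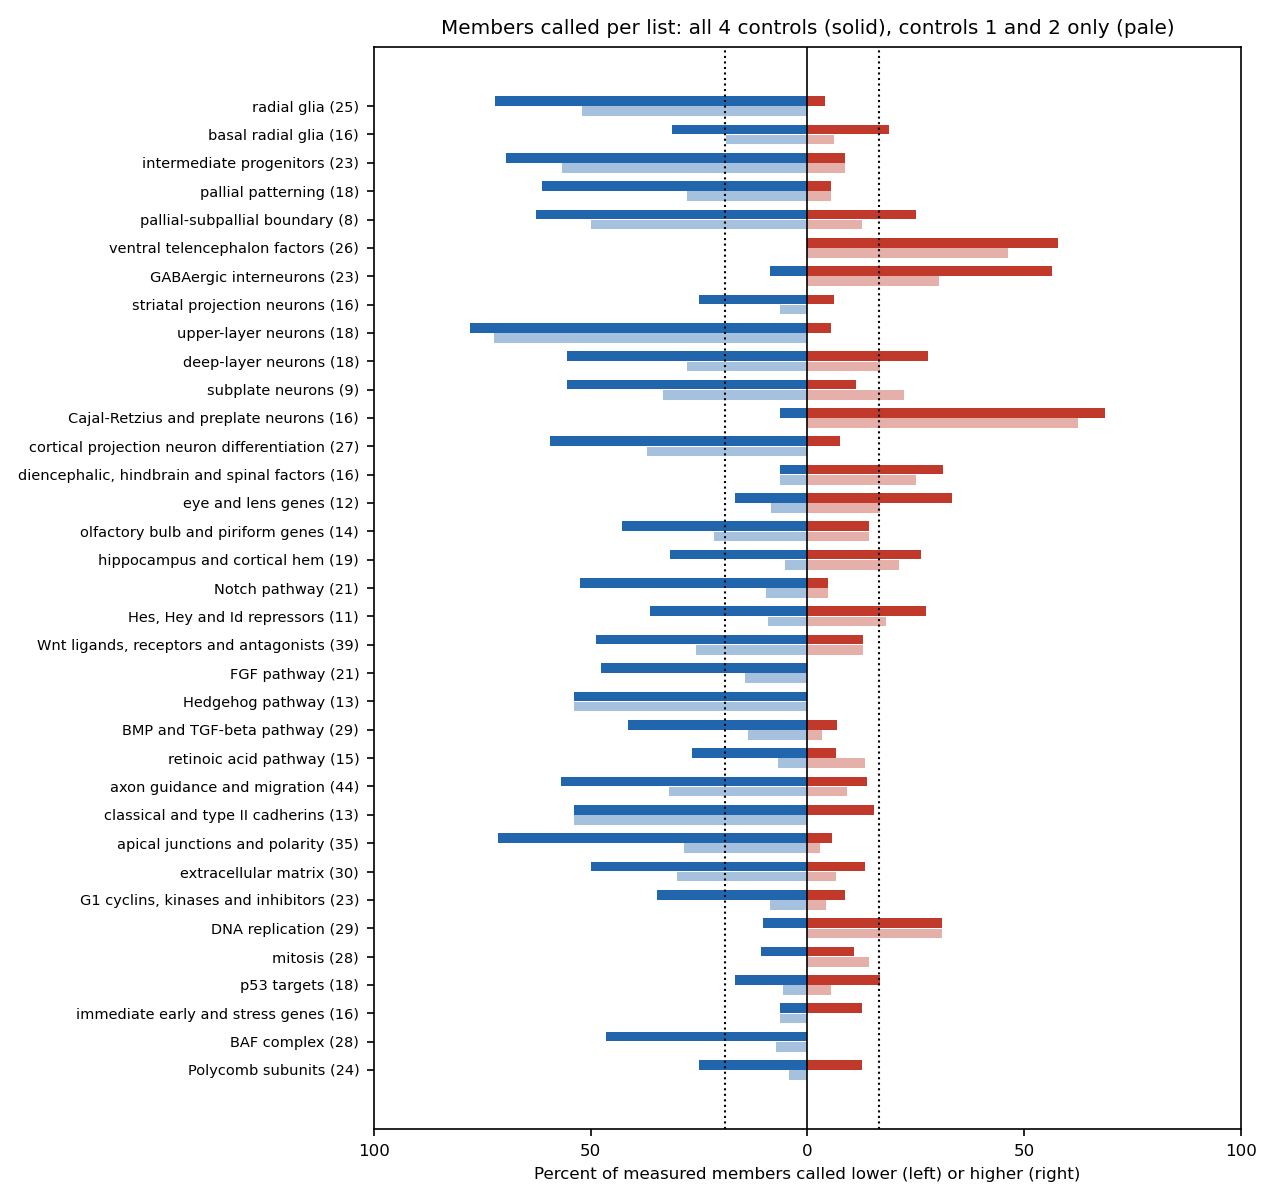
Percent of the measured members of 35 gene lists (vertical axis, number measured in brackets) called lower (left) and higher (right) in the libraries labelled Pax6 cKO, solid against all 4 controls and pale against controls 1 and 2. Dotted lines mark the share over all genes with all controls, 19.1% lower and 16.4% higher. Ventral factors (15 of 26) and Cajal-Retzius genes (11 of 16) reach far to the right, and upper-layer (14 of 18) and radial glia genes (18 of 25) far to the left.

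Upper-layer neuron genes were lower in 14 of 18 cases and higher in 1 (median -0.72). Unc5d, a member of the netrin receptor family in upper-layer neurons and their progenitors, had 138 to 150 CPM in the controls and 33.1 to 37.8 CPM in the labelled libraries, with no overlap (-2.02, adjusted p 5.93e-10). The POU factor Pou3f2 (Brn2) fell from 249.7 to 119 CPM (-1.07), and Cux2 and Rorb by 0.68 and 0.72. Kitl, a growth factor, was the member that rose (0.25, adjusted p 0.0402), and not against controls 1 and 2. There, 13 members were lower and 0 higher, and after the correction 12 and 0.

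Deep-layer genes were split, with 10 of 18 lower and 5 higher (median -0.43). Tbr1, which follows Eomes in the glutamatergic lineage and defines layer 6, had 255, 286, 472 and 444 CPM in the controls and 153, 153, 149.5 and 152 CPM in the labelled libraries (-1.26, adjusted p 0.000171). The controls fell into 2 pairs here, and against controls 1 and 2 the difference was -0.83 (adjusted p 0.0015). Bcl11b (Ctip2), the layer 5 factor, and Sox5 passed with all controls (-0.75 and -1.01) and not against controls 1 and 2 (-0.42 and -0.38). Fezf2, the selector of subcortical projection neurons, did not pass (-0.40, adjusted p 0.0984). Pcp4 (0.66), Foxp2 (0.64) and Etv1 were among those that rose. Using controls 1 and 2 alone, 5 were lower and 3 higher.

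Of 9 subplate genes 5 fell and 1 rose, and 3 and 2 against controls 1 and 2, with Lpar1, a receptor for lysophosphatidic acid, down from 25.7 ± 1.41 to 11.7 ± 0.503 CPM (-1.14). Genes of the earliest neurons of the cortical surface went the other way: of 16 Cajal-Retzius and preplate genes, 11 rose and 1 fell (median 0.58). Reln, the secreted guide of layer formation, had 394, 292, 413 and 425 CPM in the controls and 564, 527, 557 and 543 CPM in the labelled libraries (0.52, adjusted p 0.00207), all above the controls. Trp73, a p53 relative that these cells need, had 24.2 to 33.2 and 55.0 to 59.9 CPM (0.93, adjusted p 2.55e-05), and Ndnf, a secreted neurotrophic factor, 34.1 ± 8.24 and 68.3 ± 3.66 CPM (adjusted p 0.000116). Lhx5 and Ebf3, factors of the same cells, rose by 0.73 and 0.46. Against controls 1 and 2, 10 rose and 0 fell.

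Genes that projection neurons switch on as they mature were lower in 16 of 27 cases and higher in 2 (median -0.47). Slc17a6, the vesicular glutamate transporter VGLUT2, had 90.9 to 99.9 CPM in the controls and 38.4 to 44.4 CPM in the labelled libraries (-1.23, adjusted p 4.46e-08). The bHLH factors Neurod1 and Neurod2 fell by 1.16 and 1.11, and Neurod6 from 1084.8 ± 107 to 707 ± 51.3 CPM (-0.62). Stmn2, a microtubule regulator of all young neurons, rose from 1131.4 to 1515.3 CPM (0.42), and not against controls 1 and 2. There, 10 were lower and 0 higher. Of the genes that check the tissue label, Emx1, Neurod6, Tbr1 and Bcl11b were each present at over 18 CPM in both groups and each called lower.

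Factors of the diencephalon, hindbrain and spinal cord were mostly too low to test, with 16 of 42 measured. Of these 5 rose and 1 fell, and 4 and 1 against controls 1 and 2. Besides Prdm13, Lhx1, a LIM factor also made by Cajal-Retzius cells, rose from 5.54 to 9.44 CPM (0.77). Sim1, a bHLH factor of the hypothalamus, had 0.0486 and 0.309 CPM, and Olig3, of the dorsal neural tube and thalamus, 0.0476 and 0.259 CPM, both on few reads and neither past the threshold against controls 1 and 2. Since the members that could be tested passed a filter on low counts through any group of libraries, these counts do not describe the whole list. Eye and lens genes, for which Pax6 is best known, included 4 higher and 2 lower of 12, Kirrel2 and Rlbp1 among them, and 2 and 1 against controls 1 and 2. Of 14 olfactory bulb and piriform genes, 2 rose and 6 fell, and 2 and 3 against controls 1 and 2. Etv1, Eomes, Tbr1 and Lhx2 are among those called with all controls and were already counted in lists above. Prokr2, the prokineticin receptor of migrating olfactory bulb neurons, had 8.32 to 14.2 CPM in the controls and 30.4 to 42.9 CPM in the labelled libraries (1.72, adjusted p 2.52e-06).

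Among signalling pathways, the Hedgehog list had 7 of 13 measured members lower and 0 higher (median -0.74), and the counts were the same against controls 1 and 2. All 3 co-receptors of Sonic hedgehog fell. Gas1 had 48.3 to 75.5 CPM in the controls and 22.7 to 26.7 CPM in the labelled libraries (-1.40, adjusted p 2.25e-06), and Boc and Cdon fell by 1.17 and 1.19 on the log2 scale. The transcription factors Gli2 and Gli3 fell by 1.30 and 1.67, the inhibitor Sufu by 0.74 and the ligand-binding antagonist Hhip by 0.90. Ptch1, the receptor and a direct target of the pathway, had a log2 fold change of -0.25 (adjusted p 0.0579), and Smo, its signal transducer, one of -0.25 (adjusted p 0.0691).

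Wnt genes were lower in 19 of 39 cases and higher in 5 (median -0.43), and 10 and 5 against controls 1 and 2. The ligand carrier Wls and the ligands Wnt3 (1.03) and Wnt5a (0.42) rose, as did Wif1, a secreted inhibitor (1.196 to 3.75 CPM, 1.66). The secreted antagonists Sfrp1 and Sfrp2, the receptor Fzd8 and the ligand Wnt7b fell by 0.89, 1.40, 0.87 and 1.22. Axin2, a target gene common to canonical Wnt signalling in most tissues, had 35.2 ± 6.42 and 29.4 ± 3.16 CPM (-0.26, adjusted p 0.17). In the hippocampal and cortical hem list, the medial source of Wnt and BMP signals, 5 of 19 rose and 6 fell with all controls, whereas 4 rose and 1 fell against controls 1 and 2.

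For Notch, FGF and BMP components the count depended on the controls, as it did over all genes. Over all genes 19.1% were lower and 16.4% higher with all controls, and 4.97% and 3.05% against controls 1 and 2. Of 21 Notch genes 11 fell and 1 rose with all controls, 9 and 2 after the correction and 2 and 1 against controls 1 and 2. The receptors Notch2 (-0.88) and Notch3 (-0.98) passed with both sets, whereas Notch1 (-0.64), the ligand Dll1 (-0.44) and the effector Rbpj (-0.48) passed only with all controls. Of their targets, Hes1 fell from 18.6 to 10.3 CPM (-0.85). Hes5 had 11.03 to 17.5 CPM in the controls and 7.29 to 11.9 CPM in the labelled libraries, which overlap (-0.50). Its adjusted p was 0.0382 with all controls and 0.55 against controls 1 and 2. Helt, a Hes-related repressor of GABAergic progenitors in the midbrain, rose by 1.57 on the log2 scale from 1.43 CPM in the controls. Of 21 FGF genes 10 fell and 0 rose, 11 and 0 after the correction and 3 and 0 against controls 1 and 2. The ETS factor Etv5 fell from 41.5 to 23.1 CPM (-0.84). Of 29 BMP and TGF-beta genes 12 fell and 2 rose, 15 and 2 after the correction and 4 and 1 against controls 1 and 2. Of 15 retinoic acid genes 1 rose and 4 fell, 1 and 1 after the correction and 2 and 1 against controls 1 and 2. The one that rose with all controls, the retinoic acid binding protein gene Crabp1, had 2.54 to 8.34 and 16.5 to 22.6 CPM (1.89).

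Many adhesion and guidance genes were lower. Of 35 genes of apical junctions and polarity, 25 fell and 2 rose (median -0.57). The list is of long genes, with a median exon length of 7319 bases against 4146 for all genes. After the GC and length correction 21 fell and 1 rose, and against controls 1 and 2 10 fell and 1 rose. Celsr1, an atypical cadherin of planar cell polarity, had 179, 181, 281 and 250.2 CPM in the controls and 52.7, 53.9, 50.4 and 45.3 CPM in the labelled libraries (-2.14, adjusted p 7.86e-07), with no overlap. Its partner Vangl2 fell by 0.71, the protocadherin Fat1 by 0.99 and the apical polarity gene Crb2 by 1.13, while Crb1 rose from 2.72 to 4.92 CPM (0.86).

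Of 13 classical and type II cadherins 7 fell and 2 rose, and 7 and 0 against controls 1 and 2. Cdh4 (R-cadherin) had 168 to 207 CPM in the controls and 57.6 to 62.4 CPM in the labelled libraries (-1.61, adjusted p 4.46e-08), and Cdh2 (N-cadherin) 492 ± 49.8 and 328 ± 25.6 CPM (-0.59). Cdh6, Cdh8 and Cdh10 fell by 1.17, 0.81 and 0.95. Of 44 axon guidance and migration genes 25 fell and 6 rose, 18 and 7 after the correction and 14 and 4 against controls 1 and 2. Epha3, an ephrin receptor, fell from 225 to 107 CPM (-1.07), Sema3a, a secreted semaphorin, by 0.83, Robo1, a Slit receptor, by 0.69, and Dab1, the reelin adaptor, by 0.75. The netrin receptor gene Unc5c rose from 17.9 to 37.2 CPM (1.06), and Robo3, a Robo family receptor of crossing axons, from 5.44 ± 1.93 to 18.8 ± 6.16 CPM (1.79, adjusted p 0.00232). Robo3 was near the threshold against controls 1 and 2 (1.71, adjusted p 0.0485) and did not pass with a sex term (adjusted p 0.051). Of 30 extracellular matrix genes 15 fell and 4 rose, 9 and 5 after the correction and 9 and 2 against controls 1 and 2.

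Among cell cycle genes, 9 of 29 DNA replication genes rose and 3 fell (median 0.13), and 9 and 0 against controls 1 and 2. Prim1, a primase subunit, had 54.3 to 62.8 CPM in the controls and 95.2 to 108 CPM in the labelled libraries (0.78, adjusted p 9.26e-06). The clamp loader genes Rfc3 and Rfc4 rose by 0.62 and 0.58. The helicase gene Mcm3 (-0.76) was called lower with all controls and not against controls 1 and 2. Of 28 mitotic genes 3 rose, among them the centromeric histone gene Cenpa (0.69), and 3 fell, among them Mki67 (-0.71), which overlaps between groups and does not pass against controls 1 and 2. Both mitotic shares lie below those over all genes, and against controls 1 and 2 4 rose and 0 fell. Of 23 genes of the G1 phase 2 rose and 8 fell, and 1 and 2 against controls 1 and 2. Cdk6 (-0.92) and Hmga2, a chromatin protein of early progenitors (5.46 to 1.07 CPM, -2.32), were lower with both control sets. Ccnd1, cyclin D1, was lower (-0.67) with all controls and not against controls 1 and 2 (adjusted p 0.076).

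Chromatin remodelling genes were of interest because the series also targets BAF155, the product of Smarcc1. In the libraries labelled Pax6 cKO, Smarcc1 had 177, 187, 185 and 194 CPM, against 220, 275, 359 and 361 CPM in the controls (-0.71, SE 0.13, adjusted p 0.00128). The groups did not overlap, and against controls 1 and 2 the difference was -0.41 (adjusted p 0.031). Of 28 genes of the BAF complex 13 fell and 0 rose with all controls, 9 and 2 after the correction and 2 and 0 against controls 1 and 2. Smarcc2, the paralog of Smarcc1, was among those that passed with all controls (651 ± 68.6 to 489 ± 26.3 CPM, -0.41) and not with the pair (-0.29, adjusted p 0.16). Of 24 Polycomb genes 3 rose and 6 fell, 4 and 3 after the correction and 0 and 1 against controls 1 and 2.

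Of 29 glutamate and GABA receptor subunits 5 rose and 4 fell, shares close to or below those over all genes. These counts were 9 and 1 after the correction and 1 and 1 against controls 1 and 2. Gria4, an AMPA receptor subunit, rose from 50.7 to 108 CPM (1.09) and Grin2b, an NMDA receptor subunit, fell from 174 to 108 CPM (-0.69), both with both control sets. Of 34 voltage-gated channel genes 5 rose and 9 fell, 10 and 4 after the correction and 2 and 5 against controls 1 and 2, and Kcnq3, a potassium channel, fell from 191 to 83.6 CPM (-1.19). Of 26 genes of synaptic vesicles and release 0 rose and 9 fell, 3 and 5 after the correction and 0 and 2 against controls 1 and 2.

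**Figure D5:**
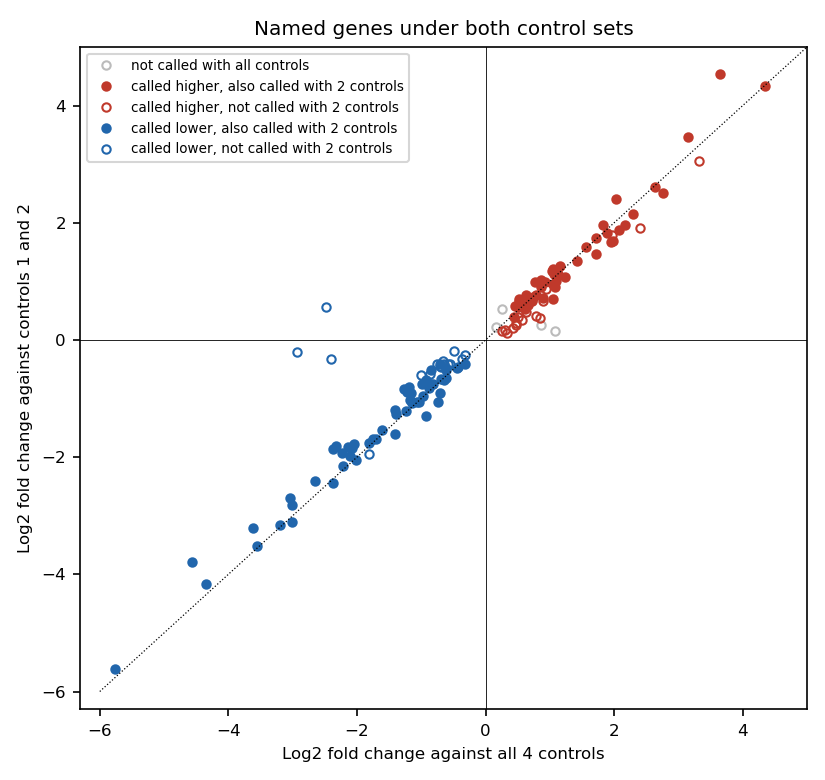
Log2 fold change of the named genes against controls 1 and 2 (vertical axis) plotted against that with all 4 controls (horizontal axis), with filled points called with both sets and open points not called with controls 1 and 2. Prss41 (-2.48 and 0.57), Atp6v0c-ps2 (-2.93 and -0.20) and Tagap (-2.41 and -0.32) lie far from the dotted line of equality. Other points lie off it by less. The change was larger against controls 1 and 2 for Prdm13 (3.65 and 4.54). It was smaller for Neurog1 (-4.57 and -3.79), Neurog2 (-3.04 and -2.70) and Adarb2 (1.95 and 1.67).

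Markers of other cells that the dissection could hold moved little, with exceptions. The 14 microglia genes summed to 194 to 250 CPM in the controls and 206 to 232 CPM in the labelled libraries, with 3 higher and 1 lower, and the 12 endothelial genes to 240 to 299 and 254 to 297 CPM, with 2 higher and 1 lower. The 8 measured erythroid genes summed to 262 to 362 CPM in the controls and 492 to 547 CPM in the labelled libraries, which do not overlap. Their globin genes Hbb-bs (0.89) and Hbb-bt (0.70), near-identical copies whose reads are hard to assign, were called with all controls and not against controls 1 and 2. Ttr, a marker of choroid plexus and of liver, had 25.8, 10.5, 14.6 and 9.94 CPM in the controls and 12.9, 318, 91.2 and 193 CPM in the labelled libraries, so 3 of the 4 labelled libraries were high and the first overlapped the controls. Ttr was the member of the choroid plexus list that rose (3.32, adjusted p 0.0210), without passing against controls 1 and 2, and Foxj1, a factor of ciliated cells, the one that fell (-0.59). The 12 measured oligodendrocyte precursor genes summed to 827 to 881 CPM in the controls and 631 to 684 CPM in the labelled libraries. These sums do not overlap. Ptprz1, also in the radial glia list, made up 497 to 565 CPM of those in the labelled libraries. Ptprz1 and Cspg4 were called lower and Olig1 and Olig2 higher, and against controls 1 and 2 1 member was higher and 2 lower. The 12 thalamic genes summed to 525 to 704 and 493 to 556 CPM. Of 11 pericyte genes 3 rose and 2 fell, and of 9 meningeal genes 1 rose and 1 fell. Against controls 1 and 2, 0 genes of the microglia, endothelial, pericyte and meningeal lists rose, and 1, 1, 2 and 1 fell. The 6 measured genes of skull, cartilage and skin summed to 73.7 to 141 CPM and 58.9 to 73.9 CPM, with Col2a1, a cartilage collagen also made by the neuroepithelium, at 52.99 and 26.3 CPM. The part of these cells in the results above was not tested.

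Compared directly with the 4 libraries labelled BAF155 cKO, 683 of the 15928 genes passed (4.29%), 319 higher (2.0%) and 364 lower (2.29%) in the libraries labelled Pax6 cKO. The 2 groups differ in sex-linked transcripts, and 2 of the BAF155 libraries were on the lane of the libraries labelled Pax6 cKO. Proneural genes were lower in the latter: Neurog2 was at 34.9, 48.4, 27.3 and 26.2 CPM in the BAF155 libraries and 14.98 to 17.1 CPM in those labelled Pax6 cKO (log2 difference -1.11, adjusted p 0.0061), and Neurod4 at 1.24 to 1.78 and 0.609 to 0.884 CPM (-1.10, adjusted p 0.0070). Celsr1 (-1.07), Cdh4 (-0.95), Sorl1 (-1.03) and Slc17a6 (-0.80) were also lower. Eomes, at 63.8 ± 17.2 CPM in the BAF155 libraries, did not pass (-0.28, SE 0.17, adjusted p 0.37), nor did Gsx2 (0.00, SE 0.19), Gad1 (0.09, SE 0.15), Rlbp1 (0.25, SE 0.10) or Pax6 (0.31, SE 0.12, adjusted p 0.15).

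Genes higher in the libraries labelled Pax6 cKO than in the BAF155 libraries included Prokr2 (1.71, adjusted p 3.7e-05), Ndnf (1.14), Lpar1 (1.29), Calb2 (0.59), Hopx (0.92) and Wls (0.52). Prdm13, a factor low in the control cortex, was at 10.7 ± 3.93 CPM in the BAF155 libraries and 2.37 ± 0.0406 CPM in those labelled Pax6 cKO (-2.18, adjusted p 0.00011), whereas Helt, likewise low there, was at 2.95 CPM in the BAF155 libraries and did not pass (0.51, adjusted p 0.11). Among the 6 lowest of the direct comparison, Kirrel2 was at 14.2 ± 4.09 and 1.83 ± 0.177 CPM (-2.96, adjusted p 4.0e-06), and Sim1 at 2.55 and 0.309 CPM (-3.03). The highest of the direct comparison were Ttr (4.56), Rpl29 (4.48), Dsc3 (3.28), Prss56 (2.94), Eif3j2 (2.63) and Grp (2.35). Rpl29, a ribosomal protein gene with many pseudogenes, was at 24.3 to 32.1 CPM in controls 1 and 2 and the labelled libraries and at 0.908 to 1.46 CPM in controls 3 and 4 and the BAF155 libraries, a split that follows the sex-linked transcripts and not the knockout labels. Prss41, Atp6v0c-ps2 and Tagap, among the lowest of the direct comparison, were likewise low in controls 1 and 2 and the labelled libraries and high in controls 3 and 4. Pla2g4b completed the 6 lowest, at 7.61 and 1.01 CPM.

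Promoter sequence was looked at for the letters TAATTA, the core that many homeodomain proteins bind and which reads the same on both strands. The window was the 250 bases before each listed start in the RefSeq promoter table (GRCm38.p6), which matched 11332 of the genes described. TAATTA occurred in 2.30% of all these windows, in 6.06% of 165 genes higher by at least 2-fold and in 5.76% of 191 lower by at least 2-fold, so the share was similar in both directions. The E-box CAGATG (or CATCTG on the other strand) was in 10.3%, 13.9% and 14.1%, and CAGCTG in 12.03%, 15.2% and 14.7%. A match describes letters and is not evidence of a site. The windows below are those of 2 genes that rose and 2 that fell. Each has the motif and a listed start within 100 bases of that of the gene annotation. They were picked for large changes from a restricted set that left out some of the genes described. Other genes with the motif may therefore have changed more. Capitals mark TAATTA.
Adarb2 (chr13:8202616-8202865, plus strand): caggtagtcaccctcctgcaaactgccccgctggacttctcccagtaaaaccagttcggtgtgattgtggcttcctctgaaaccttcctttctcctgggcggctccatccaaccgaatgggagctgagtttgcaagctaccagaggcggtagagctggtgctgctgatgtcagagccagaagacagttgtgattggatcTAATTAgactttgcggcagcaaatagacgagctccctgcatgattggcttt
Robo3 (chr9:37433176-37433425, minus strand): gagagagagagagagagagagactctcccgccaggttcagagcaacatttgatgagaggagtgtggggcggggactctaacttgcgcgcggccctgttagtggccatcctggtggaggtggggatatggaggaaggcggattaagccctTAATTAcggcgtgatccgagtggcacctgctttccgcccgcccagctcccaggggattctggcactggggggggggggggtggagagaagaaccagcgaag
Neurog1 (chr13:56252181-56252430, minus strand): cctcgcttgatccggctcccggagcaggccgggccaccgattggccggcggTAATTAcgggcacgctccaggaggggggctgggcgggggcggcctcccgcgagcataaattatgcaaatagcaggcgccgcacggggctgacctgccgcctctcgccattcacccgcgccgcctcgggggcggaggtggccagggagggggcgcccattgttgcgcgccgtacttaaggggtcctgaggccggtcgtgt
Rgs13 (chr1:144177373-144177622, minus strand): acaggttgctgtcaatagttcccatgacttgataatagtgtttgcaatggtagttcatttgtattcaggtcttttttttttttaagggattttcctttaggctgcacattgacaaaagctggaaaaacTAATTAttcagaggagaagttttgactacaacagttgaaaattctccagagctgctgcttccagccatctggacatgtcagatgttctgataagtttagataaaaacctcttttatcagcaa
The motif starts 51 bases before the start of Adarb2, 101 before that of Robo3, 199 before that of Neurog1 and 122 before that of Rgs13. Rgs13, a regulator of G-protein signalling, fell by 1.38 on the log2 scale (adjusted p 0.00253) and was chosen for its window after its values were seen. The window of Pax6os1 also holds the motif.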

How the data were processed

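Total RNA from E15.5 mouse cortex was isolated with the RNeasy kit and made into libraries with the TruSeq RNA v2 kit, per the labels' protocols. The authors deposited raw whole-number counts for each gene, 1 table per library, without normalization. Reads were placed on mm10 (per the submitters' processing notes), and which aligner, counter and annotation served is not given in the sources used here. Gene names, positions and lengths came from GENCODE M21, which matched 48349 of 48709 identifiers. Counts were tested with edgeR 4.0.16 (quasi-likelihood, robust, TMM scaling, filterByExpr) over all 12 libraries with 1 coefficient per group, in R 4.3.3. Benjamini-Hochberg adjustment ran over all 16511 genes tested, and a gene was called at an adjusted p under 0.05. Levels are CPM, and SEs are the log2 fold change over the root of its F statistic. The script was tested on simulated data.

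Members and the 52 gene lists were chosen with earlier results of these data known. Named were Pax6 and Smarcc1, the 12 highest, 12 lowest and 10 of smallest p among called genes whose groups do not overlap and with a mean of at least 1 CPM in a group, the called members of smallest adjusted p of each list, a fixed set of developmental genes, and the 6 highest and 6 lowest against BAF155 cKO; further list members named in the text were picked after their values were seen. A few named genes are not reported here and are left out of the counts of named genes, but remain in the lists' counts. Lists are described by counts and medians, with no set test. Some genes are in several lists, so the counts of different lists are not independent. Replicate numbers did not pair the libraries, with correlations of same-numbered deviations of 0.12, -0.03, -0.10 and -0.02.

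Alternatives were RLE scaling, DESeq2 1.42.0, limma-voom (limma 3.58.1), other filters, the 8 libraries alone, a replicate block, a fold threshold of 1.2, a GC and length correction (loess, span 0.3), a sex term, controls 1 and 2 only, BAF155 replicates 1 and 2 only, and leaving out each library.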

Additional observations from a re-analysis of the deposited data

Results flagged for a closer look

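In 11 of the 284 groups of 4 libraries examined for the named genes, 1 library lay apart from the other 3 by more than Dixon's critical value allows; chance does so in about 1 group of 20. In the libraries labelled Pax6 cKO, replicate 4 was low for Dlx1 (627 CPM, against 666 to 673 in the others), for Calb2 (63.1 against 68.4 to 68.8) and for Tex29 (1.27 against 1.77 to 1.87). Replicate 2 was high for Helt (4.79 against 3.96 to 4.03), Mfsd2a, a lipid transporter of brain endothelium (33.3 against 26.3 to 27.0), and Ankrd37, a hypoxia-induced gene (11.8 against 9.96 to 10.2), and low for Ptprz1, a phosphatase of radial glia (497 against 556 to 565). Replicate 1 was high for Pcgf5, a Polycomb subunit (6.29 against 5.53 to 5.55). Among the controls, replicate 2 was high for Tex29 (0.758 against 0.287 to 0.338) and low for Sdc3 (281 against 331 to 338). Control replicate 1 was low for Etv5 (32.9 against 43.7 to 44.9).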

How the results depend on the processing

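Against all 4 controls 2619 genes were higher and 3044 lower. A fold threshold of 1.2 left 821 and 1024, controls 1 and 2 alone 508 and 827, and a sex term 718 and 1002. Sex-linked transcripts differ within a group only among the controls. The sex term therefore compares with controls 1 and 2 again and is not a separate check. Leaving out 1 library gave 1645 to 2778 higher and 2039 to 3584 lower genes, with 1645 higher without control 3 and 1704 without control 4. Of genes past 2-fold, 281 higher and 269 lower, controls 1 and 2 left 123 higher and the sex term 132 higher and 175 lower; leaving out 1 library gave 199 to 415 and 219 to 347. The replicate block, for numbers that did not pair the libraries, gave 2626 higher and 2864 lower. Against BAF155 cKO (319 higher, 364 lower) DESeq2 gave 584 and 700, BAF155 replicates 1 and 2 alone 159 higher, the replicate block 239 and 243, and leaving out 1 library 139 to 354 and 154 to 404. Prss41 turned from -2.48 to 0.57 on the log2 scale with controls 1 and 2 alone and to 0.57 with the sex term. Of 142 named genes, 106 kept their direction and side of the threshold with controls 1 and 2, 110 with the sex term, 129 with the GC and length correction and 141 with DESeq2. The cause of these moves was not tested. Control and labelled libraries share no lane. Depth was not varied, and it limits genes on few reads, such as Slc14a1 with 14 reads in the labelled libraries.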

Other observations

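Gene families outside the lists above were counted after values were seen, as a description. Of 74 genes of cytoplasmic ribosomal proteins, the protein part of the translating ribosome, 49 were higher and 0 lower in the libraries labelled Pax6 cKO (median log2 fold change 0.50), against 2 and 0 with controls 1 and 2 alone and 31 and 0 after the GC and length correction. Of 77 mitochondrial ribosomal protein genes 44 were higher and 0 lower, 3 and 0 with controls 1 and 2 and 28 and 2 after the correction. Of 91 nuclear genes of oxidative phosphorylation, 61 were higher and 1 lower, 2 and 0 with controls 1 and 2 and 31 and 1 after the correction. Kinesins, the motors of microtubule transport, had 1 higher and 15 lower of 35. These counts were 2 and 7 with controls 1 and 2, and 2 and 11 after the correction. Clustered protocadherins, adhesion genes of neurons, had 1 higher and 14 lower of 53, which became 0 and 4, and 0 and 8. In the same order, mitochondrially encoded genes had 8 higher and 0 lower of 21, then 0 and 0, and 4 and 0. Proteasome subunits had 18 higher and 3 lower of 36, then 2 and 0, and 10 and 4. Zinc finger genes named Zfp had 111 higher and 54 lower of 357, then 17 and 4, and 66 and 43. Over all genes 16.4% were higher and 19.1% lower, and 37.5% were lower in the longest class of genes. The median exon length was 1805.5 bases for the cytoplasmic and 2533 for the mitochondrial ribosomal genes. It was 6990 for the kinesins, 5041 for the protocadherins, 4550 for the Zfp genes, 2814 for the proteasome and 71 for the mitochondrially encoded genes, against 4146 over all genes. The part of length in these counts was not tested beyond the correction.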
